A study of Tetranychus urticae with 5 samples.

Results

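ABC transporters of subfamily C (ABCC) were examined in the spider mite Tetranychus urticae, across strains resistant to the acaricide spirodiclofen and the strain LS-VL. The members were all gene names on the array whose symbol contains ABCC and does not start with p. This gave 43 of 19601 gene names. Of these, 36 have a symbol of the form TuABCC and 7 have one of the form ABCCinc, whose ending the files do not explain. Each member had 3 probes, 129 spots in all.

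Female deutonymphs, the last immature stage before the adult, were compared on 5 Agilent arrays with 2 colours. SR-TK was kept under selection with spirodiclofen at 1000 mg/L and was hybridised on 2 arrays. SR-VP was selected at 5000 mg/L and was hybridised on 3 arrays. LS-VL, for which no selection is given, was the second sample on all 5 arrays. All strains were reared on 1 bean cultivar under shared conditions. Each extract pooled about 200 mites, the offspring of females that laid eggs in groups of 250 on a leaf. The resistant strain carried Cy5 and LS-VL carried Cy3 on every array. Dyes were not swapped, so a dye bias particular to a probe and a difference between strains cannot be told apart in a ratio to LS-VL. The arrays are labelled biological replicates. The labels do not state if every array had its own LS-VL extract, and where extracts were shared the p-values miss that part of the error.

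ABC transporters are membrane proteins that use ATP to move substrates across a membrane. Many members of subfamily C, also called multidrug resistance-associated proteins, export compounds conjugated to glutathione, glucuronate or sulfate. In arthropods they are often studied beside glutathione S-transferases (GSTs), which make glutathione conjugates, as part of the handling of foreign compounds. The files give no substrate, role or protein sequence for a single mite member, so none is given here. A ratio from whole mites cannot tell fewer cells of a type from less RNA per cell.

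Most ABCC members gave a signal in these mites. A probe counts as seen when the scanner's flag placed it well above background, and a member counts as detected on an array when at least 2 of its 3 probes were seen. In SR-TK 41 of 43 members (95.3%) were detected on both arrays, against 72.5% of all gene names. In SR-VP 37 members (86.0%) were detected on all 3 arrays and 4 more on some arrays, against 53.1% of all gene names on all 3. In LS-VL 36 members (83.7%) were detected on all 5 arrays and 5 more on some, against 58.3% of all gene names on all 5. The shares for the strains rest on 2, 3 and 5 arrays and are not directly comparable.

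**Figure D1:**
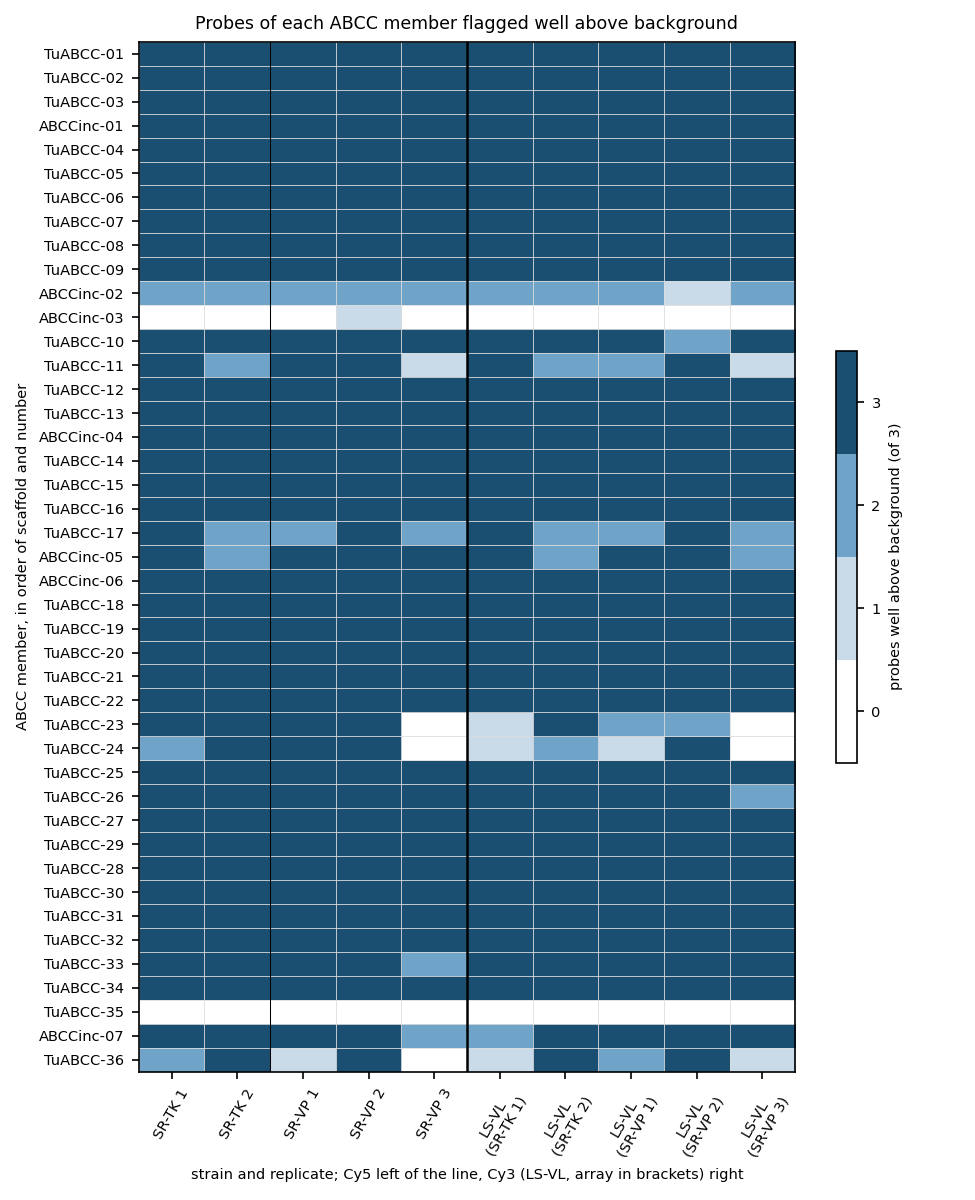
Number of probes (0 to 3, shade of blue) flagged well above background for each of 43 ABCC members (rows, in order of scaffold and number) in each channel of each array (columns, SR-TK and SR-VP in Cy5 left of the thick line, LS-VL in Cy3 right of it). TuABCC-35 and ABCCinc-03 are blank almost throughout, 30 members are dark in every column, and the column of SR-VP replicate 3 has more gaps than the other Cy5 columns.

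SR-VP replicate 3 was the dimmest array. On it 108 of the 129 ABCC spots were seen in Cy5 and 109 in Cy3, while the other arrays had 119 to 123 in Cy5 and 115 to 119 in Cy3. Over all spots the share seen in Cy5 was 54.3% on that array and 72.9% to 75.9% on the others. Without that array SR-VP had 40 members detected. No member had a saturated spot or a spot flagged as an outlier.

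Of the 43 members, 30 had all 30 flags set, counting 3 probes in both channels of 5 arrays. The 5 with the most flags, taken by name among those tied, were ABCCinc-01, ABCCinc-04, ABCCinc-06, TuABCC-01 and TuABCC-02. Another 5 members missed 1 to 3 flags, and 6 missed 4 or more. The least often seen of the measured members were TuABCC-24 with 18 flags, ABCCinc-02 and TuABCC-36 with 19 each, and TuABCC-23 with 20. On SR-VP replicate 3 none of the probes of TuABCC-23, TuABCC-24 or TuABCC-36 was seen in Cy5, so their ratios there come from signals not well above background. TuABCC-11 had 23 flags and TuABCC-17 had 24.

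Neither TuABCC-35 nor ABCCinc-03 was measured in any strain. TuABCC-35 (Tetur25g02050) had 0 of 30 flags. The normalized log2 signals of its single probes lay between 5.89 and 6.26 in Cy5 and between 5.82 and 6.36 in Cy3. ABCCinc-03 (Tetur03g11280) had 1 flag, in SR-VP replicate 2. Its single probes lay between 5.80 and 6.66 in Cy5 and between 5.88 and 6.38 in Cy3. Probes not well above background had a median log2 signal of 6.06 to 6.26 in Cy5 and 6.10 to 6.20 in Cy3, depending on the array. No ratio is given for these members. The other 41 members, 35 of the form TuABCC and 6 of the form ABCCinc, entered the tests. Of these, 38 kept all 3 probes, and ABCCinc-02, TuABCC-17 and TuABCC-36 kept 2. Over these 41 members the log2 signals, as means of the probes kept, ranged between 6.18 and 12.45. A signal depends on its probe as well as on the transcript, so members are not ranked by it.

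The first comparison asked which members differ in level between SR-TK and LS-VL. Values are log2 ratios of the resistant strain over LS-VL, with a standard error (SE) from limma fitted to all 15861 genes tested. A member passed the test at a Benjamini-Hochberg adjusted p under 0.05 over those genes, and was called if the difference was also at least 2-fold. In SR-TK, 2 members passed the test, TuABCC-07 and TuABCC-08, both higher. By limma 0 of 41 members was called in SR-TK, against 2.28% of all genes tested. The 2 that passed are 4.88% of members, against 4.73% of all genes higher, 3.61% lower and 8.34% in either direction. An unadjusted p under 0.05 was found for 11 members (26.8%, against 25.2% of all genes). The median log2 ratio of the members was 0.07 and that of all genes was 0.02. The highest and the lowest were 0.88 and −0.64. Where each array was centred on its median in place of loess, the median was 0.42 for the members and 0.22 for all genes, and 18 members passed, all higher (43.9%, against 38.6% of all genes, 30.2% higher and 8.34% lower).

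The same question was asked of SR-VP and LS-VL. In SR-VP, TuABCC-01, TuABCC-07, TuABCC-08 and TuABCC-14 passed the test as higher, and ABCCinc-01 and TuABCC-27 as lower. By limma 0 of 41 members was called in SR-VP, against 1.95% of all genes tested. The 6 that passed are 14.6% of members, against 11.3% of all genes. Higher were 9.76% of members and 5.85% of all genes, and lower were 4.88% of members and 5.45% of all genes. An unadjusted p under 0.05 was found for 18 members (43.9%, against 26.9% of all genes), 9 above 0 and 9 below, while 13.3% and 13.6% of all genes were so. That unadjusted count was 10 without SR-VP replicate 1, 10 without SR-VP replicate 2 and 8 without SR-VP replicate 3. In those fits 17.9%, 17.7% and 27.9% of all genes were so. With the SR-VP arrays fitted alone the count was 23 (56.1%, against 27.7% of all genes). The median log2 ratio was 0.04 over the members and 0.00033 over all genes, with members between −0.81 and 0.69. With arrays centred on their median, the medians were 0.23 and 0.12, and 10 members passed, all higher (24.4%, against 22.2% of all genes, 15% higher and 7.23% lower). Both comparisons use LS-VL as the second sample and share 1 estimate of the spread, so they are not independent of each other.

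**Figure D2:**
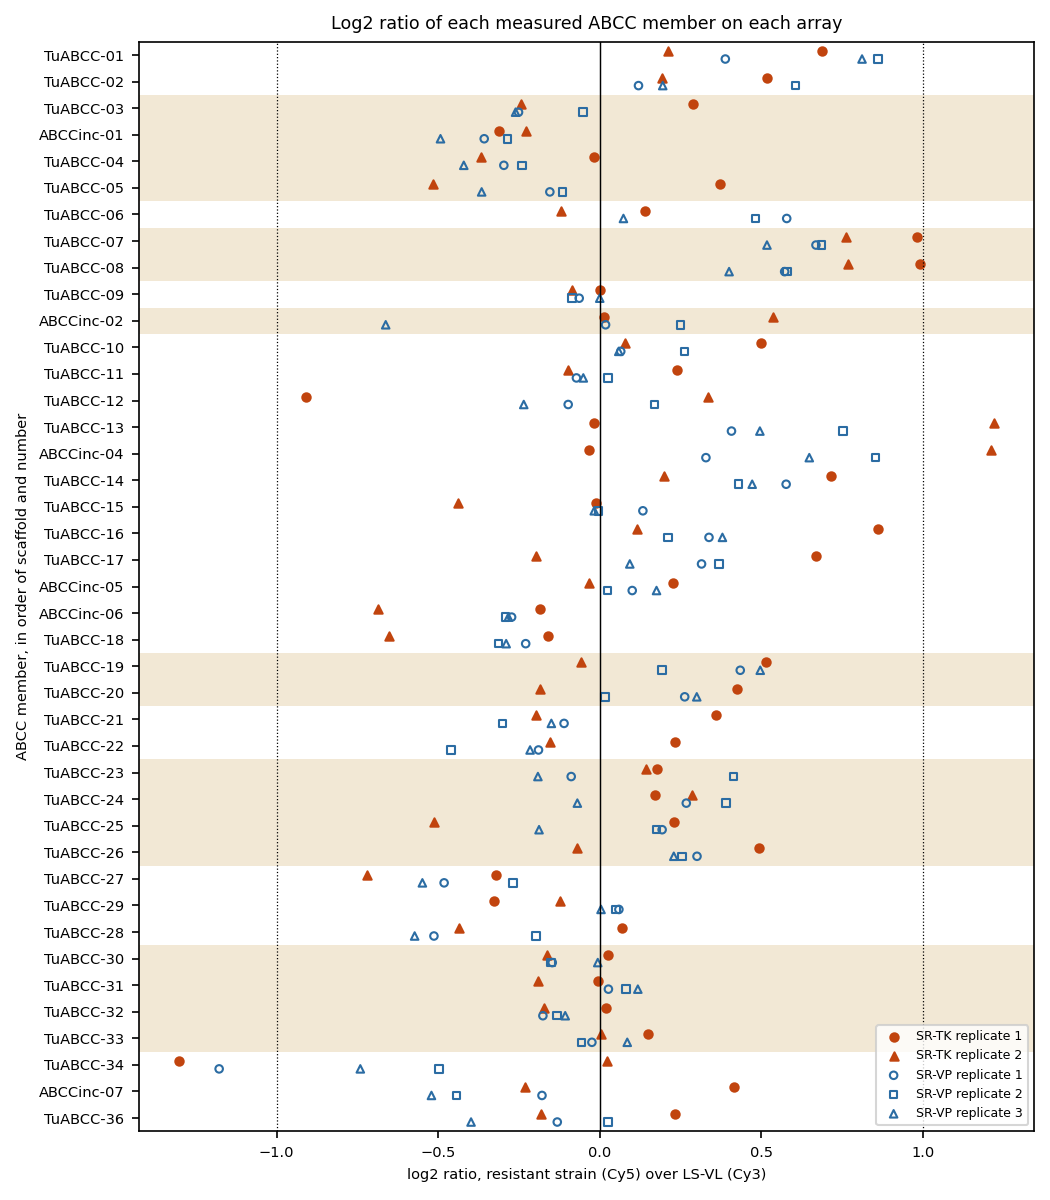
Log2 ratio of the resistant strain (Cy5) over LS-VL (Cy3), on the horizontal axis, for each of 41 measured ABCC members on each of 5 arrays, SR-TK filled and SR-VP open; shaded bands mark runs of neighbouring members, and dotted lines a 2-fold difference. TuABCC-07 and TuABCC-08 lie right of 0 on all 5 arrays, between 0.40 and 0.99.

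TuABCC-07 (Tetur03g09090) was higher than in LS-VL in both resistant strains. Its log2 signal was 11.22 and 11.17 in SR-TK and 11.13, 11.05 and 11.16 in SR-VP. In LS-VL it was 10.24 and 10.41 on the SR-TK arrays and 10.46, 10.36 and 10.64 on the SR-VP arrays. Every resistant value lay above every LS-VL value. Its log2 ratio was 0.98 and 0.76 on the SR-TK arrays, a mean of 0.87 ± 0.09 (SE, n = 2), or 1.83-fold (limma, adjusted p = 0.00542). On the SR-VP arrays the ratio was 0.67, 0.69 and 0.52, a mean of 0.62 ± 0.08 (SE, n = 3), or 1.54-fold (limma, adjusted p = 0.00587).

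TuABCC-08 (Tetur03g09120), which by number lies next to TuABCC-07 on scaffold 3, was likewise higher in both strains. Its log2 signal was 11.41 and 11.26 in SR-TK and 10.83, 10.97 and 10.83 in SR-VP. In LS-VL it was 10.42 and 10.49 on the SR-TK arrays and 10.26, 10.39 and 10.43 on the SR-VP arrays. The groups of signals did not overlap, with both SR-TK values above all others. The log2 ratio was 0.99 and 0.77 on the SR-TK arrays, 0.88 ± 0.09 (SE, n = 2), or 1.84-fold (limma, adjusted p = 0.00548). On the SR-VP arrays it was 0.57, 0.58 and 0.40, 0.52 ± 0.08 (SE, n = 3), or 1.43-fold (limma, adjusted p = 0.0117).

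The calls of this pair depended on the arrays used. In SR-TK both passed with any single array left out, but not with the 2 SR-TK arrays fitted alone (adjusted p = 0.0877 for TuABCC-07 and 0.0871 for TuABCC-08). In SR-VP neither passed without SR-VP replicate 1 (adjusted p = 0.0533 for TuABCC-07 and 0.0915 for TuABCC-08) or without SR-VP replicate 2 (0.055 for TuABCC-07 and 0.091 for TuABCC-08). With arrays centred on their median, both were called in SR-TK, at a log2 ratio of 1.405 for TuABCC-07 and of 1.41 for TuABCC-08.

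**Figure D3:**
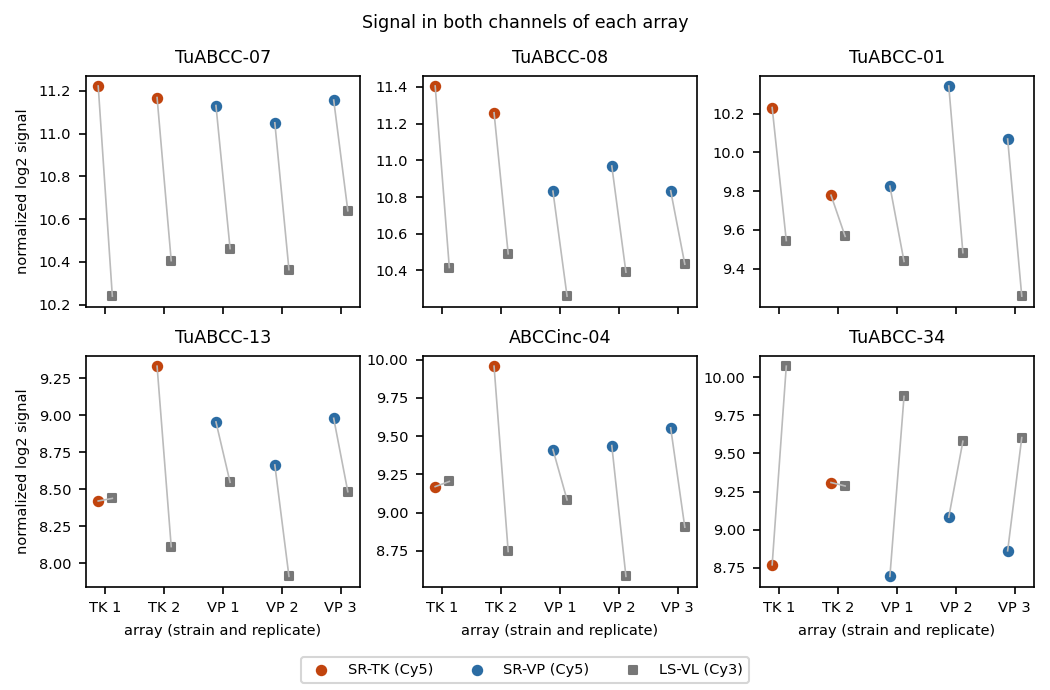
Normalized log2 signal (vertical axis, scaled for each panel) of 6 ABCC members on the 5 arrays (horizontal axis, SR-TK replicates 1 and 2, then SR-VP replicates 1 to 3), with circles for the resistant strain in Cy5 and squares for LS-VL in Cy3. TuABCC-07, TuABCC-08 and TuABCC-01 have the circle above the square on every array, whereas for TuABCC-13, ABCCinc-04 and TuABCC-34 the gap nearly closes on 1 SR-TK array.

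Of the members that passed in SR-VP, TuABCC-01 (Tetur01g09230) had the largest ratio. Its log2 signal was 9.83, 10.34 and 10.07 in SR-VP, against 9.44, 9.48 and 9.26 in LS-VL on the same arrays, and the groups did not overlap. The log2 ratio was 0.69 ± 0.13 (SE, n = 3), or 1.61-fold (limma, adjusted p = 0.0251). In SR-TK the 2 arrays gave 0.69 and 0.21, a mean of 0.45 ± 0.16 (SE) that did not pass (adjusted p = 0.153). TuABCC-01 was the sole member to pass in SR-VP without SR-VP replicate 1. It did not pass without SR-VP replicate 2 or 3, or with the scanner's processed signals (limma, adjusted p = 0.0573).

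TuABCC-14 (Tetur04g09060) had a log2 signal of 9.90, 9.82 and 9.996 in SR-VP, against 9.32, 9.39 and 9.52 in LS-VL on the same arrays. The SR-VP values lay above all LS-VL values, and the mean log2 ratio was 0.49 ± 0.11 (SE, n = 3, limma adjusted p = 0.0383). The probes did not share the size of this difference. Averaged over the SR-VP arrays, the 3 probes gave 0.32, 0.13 and 1.03. With the median of the probes in place of their mean, TuABCC-14 no longer passed, and likewise with any 1 of the SR-VP arrays left out or with the processed signals (limma, adjusted p = 0.0814).

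Both members that were lower in SR-VP were so by less than 2-fold. ABCCinc-01 (Tetur01g17820) had a log2 signal of 8.67, 9.03 and 8.67 in SR-VP, against 9.03, 9.32 and 9.16 in LS-VL on the same arrays. These signals overlapped between the strains, but on each array SR-VP was lower. Its ratio was −0.36, −0.29 and −0.49 on those arrays, a mean of −0.38 ± 0.07 (SE, n = 3, limma adjusted p = 0.023). In SR-TK it was −0.31 and −0.23, which did not pass (−0.27 ± 0.09, adjusted p = 0.119), and this SR-TK mean changed sign where arrays were centred on their median. TuABCC-27 (Tetur11g02620) had a log2 ratio of −0.48, −0.27 and −0.55 in SR-VP, a mean of −0.43 ± 0.10 (SE, n = 3, limma adjusted p = 0.0471). In SR-TK it was −0.32 and −0.72, and the mean of −0.52 ± 0.12 did not pass (adjusted p = 0.0588). Neither was lower past the test in SR-VP with any of the 3 SR-VP arrays left out, with the median centring, or with the processed signals (limma, adjusted p = 0.0557 for ABCCinc-01 and 0.0986 for TuABCC-27). TuABCC-27 also missed the threshold with no filter on dim probes (limma, adjusted p = 0.0536), with only bright probes (0.054) and with the median of the probes (0.071).

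Of the 5 highest and 5 lowest means in each strain, several came from members whose arrays disagreed and did not pass the test. TuABCC-13 (Tetur04g06450) had a log2 ratio of −0.02 and 1.22 on the SR-TK arrays and of 0.41, 0.75 and 0.50 on the SR-VP arrays. ABCCinc-04 (Tetur04g06530), 80 numbers further on scaffold 4, had −0.03 and 1.21 on the SR-TK arrays and 0.33, 0.85 and 0.65 on the SR-VP arrays. TuABCC-34 (Tetur16g04040), the lowest mean in both strains, had −1.30 and 0.02 on the SR-TK arrays and −1.18, −0.50 and −0.74 on the SR-VP arrays. In each of these 3 members 1 SR-TK array was near 0 and the other was past 2-fold, while the SR-VP arrays all had 1 sign. Their adjusted p lay between 0.236 and 0.267 in SR-TK and between 0.105 and 0.178 in SR-VP. Without SR-TK replicate 1, TuABCC-13 and ABCCinc-04 were called as higher in SR-TK. Without SR-TK replicate 2, TuABCC-34 was called as lower in SR-TK. With the SR-VP arrays fitted alone, all 3 passed in SR-VP (limma, adjusted p = 0.0169 for TuABCC-13, 0.0239 for ABCCinc-04 and 0.0179 for TuABCC-34). With the median centring TuABCC-13 and ABCCinc-04 passed in both strains.

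The channels show where these gaps lay. TuABCC-13 had a log2 signal of 8.42 and 9.33 in SR-TK, against 8.44 and 8.11 in LS-VL on the same arrays, so that both channels moved, in opposite directions. ABCCinc-04 had 9.17 and 9.96 in SR-TK, against 9.20 and 8.75 in LS-VL. TuABCC-34 had 8.77 and 9.31 in SR-TK, against 10.07 and 9.29 in LS-VL. In all 3 the resistant strain's signal was higher on the replicate 2 array and LS-VL's was lower there.

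Other low or high means were smaller. In SR-TK, TuABCC-16 had 0.49 ± 0.17 (0.86 and 0.11 on the arrays), ABCCinc-06 had −0.44 ± 0.12 (−0.19 and −0.68), TuABCC-18 had −0.41 ± 0.12 (−0.16 and −0.65), and TuABCC-12 had −0.29 ± 0.28 (−0.91 and 0.34). In SR-VP, TuABCC-28 had −0.43 ± 0.12 (−0.51, −0.20 and −0.57 on the arrays) and ABCCinc-07 had −0.38 ± 0.14 (−0.18, −0.44 and −0.52). None of these passed the test. The means of ABCCinc-06, TuABCC-18 and TuABCC-12 in SR-TK changed sign where arrays were centred on their median (to 0.05, 0.09 and 0.30), and TuABCC-16 then passed in both strains. In SR-TK, ABCCinc-06 and TuABCC-18 passed without SR-TK replicate 1, where TuABCC-12 changed sign, and TuABCC-12 and TuABCC-16 passed without SR-TK replicate 2. TuABCC-28 passed in SR-VP with the SR-VP arrays alone (limma, adjusted p = 0.0431).

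The resistant strains were then set against each other, as SR-TK minus SR-VP, where any dye bias that the arrays share drops out. No member differed past the test. By limma 0 of 41 members was called, against 0.214% of all genes, and 0 passed on the adjusted p alone, against 0.252%. An unadjusted p under 0.05 was found for 1 member, TuABCC-08 (2.44%, against 9.12% of all genes). The unadjusted count was 9 members without SR-TK replicate 1 (22%, against 9.39% of all genes) and 12 without SR-TK replicate 2 (29.3%, against 11.6%). In the fit of all 5 arrays, TuABCC-08 had a difference of 0.36 ± 0.12 (SE, 95% interval 0.06 to 0.66), with an adjusted p of 0.44 by limma. For TuABCC-07 the difference was 0.25 (95% interval −0.04 to 0.54; adjusted p = 0.621 in limma's fit). In both of these members the SR-TK ratios lay above all SR-VP ratios.

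The other large differences between the strains had wide intervals. ABCCinc-07 had 0.47 (95% interval −0.05 to 1.00), ABCCinc-02 had 0.41 (−0.32 to 1.13), and TuABCC-22 had 0.33 (−0.06 to 0.72). TuABCC-06 had −0.37 (−0.81 to 0.08). Its ratios were 0.14 and −0.12 on the SR-TK arrays and 0.58, 0.48 and 0.07 on the SR-VP arrays. Against LS-VL, TuABCC-06 did not pass in SR-VP (limma, adjusted p = 0.0959). It did pass there as higher without SR-VP replicate 3, and with arrays centred on their median. Differences of up to the ends of these intervals remain possible, so a missed threshold does not show that the strains are alike.

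The SR-TK arrays were far apart for many ABCC members. The gap between the 2 SR-TK ratios had a median of 0.43 over the members and of 0.147 over all genes. It was over 0.5 for 17 members (41.5%, against 11.4% of all genes) and over 1 for TuABCC-12, TuABCC-13, ABCCinc-04 and TuABCC-34. The range over the 3 SR-VP arrays had a median of 0.209 over the members and of 0.254 over all genes. These medians describe the lists and were not tested. Other families varied in this gap, with a median of 0.413 over 99 cytochrome P450s, 0.317 over 37 other ABC transporters and 0.241 over 31 GSTs. Over 84 carboxyl/cholinesterases it was 0.185, closer to that of all genes.

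**Figure D4:**
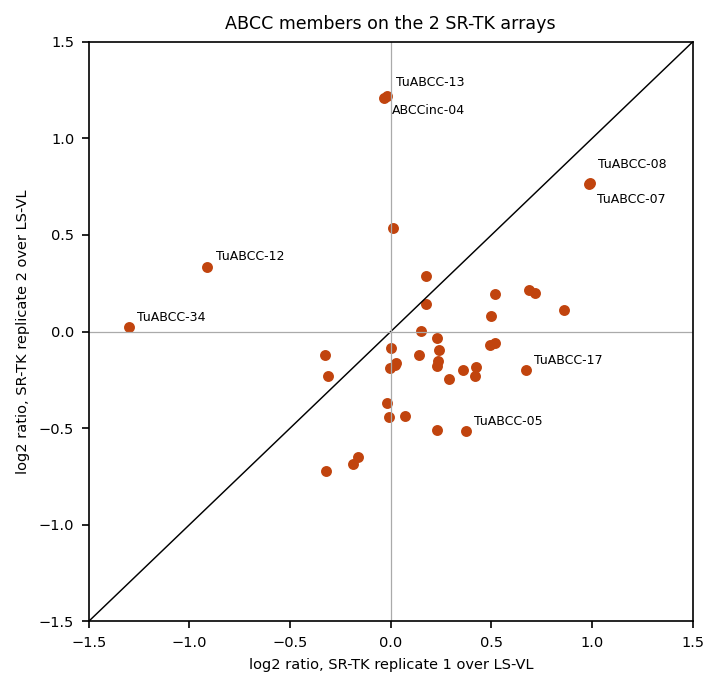
Log2 ratio over LS-VL of each of 41 ABCC members on the SR-TK replicate 1 array (horizontal axis) and on the SR-TK replicate 2 array (vertical axis); the diagonal marks equal ratios. Most points, 33 of 41, lie below the diagonal, and TuABCC-12, TuABCC-13, ABCCinc-04 and TuABCC-34 lie far above it.

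The gap ran mostly 1 way. In 33 of 41 members (80.5%, against 53.7% of all genes) the ratio was higher on the replicate 1 array of SR-TK. The same lean was found in 80.8% of the cytochrome P450s, 79.8% of the carboxyl/cholinesterases and 71% of the GSTs. Among the other ABC transporters the share was 59.5%, nearer to that of all genes. The median ratio of the members was 0.18 on that array and −0.12 on the replicate 2 array, and 22 members had opposite signs on them (53.7%, against 31.9% of all genes). TuABCC-17, for one, had 0.67 and −0.20, and TuABCC-05 had 0.37 and −0.52. What sets these arrays apart was not tested. On all 5 arrays, 12 members kept 1 sign (29.3%, against 32% of all genes).

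At the other end, TuABCC-09 (Tetur03g09480) varied least over the 5 arrays, with ratios that spanned 0.088 in all and lay between −0.09 and 0.0024. The members that neither a run nor an extreme value set apart were TuABCC-09, TuABCC-10, TuABCC-11, TuABCC-15, TuABCC-17, TuABCC-21, TuABCC-29 and ABCCinc-05. Their means lay between −0.23 and 0.29 in SR-TK and between −0.19 and 0.26 in SR-VP, and none passed with loess. With arrays centred on their median, TuABCC-09, TuABCC-10 and TuABCC-21 passed as higher in SR-TK.

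LS-VL was the same strain on all arrays, so its signals show how far a member's measured signal moved with no change of strain. Such a move can come from a single probe. The range of its log2 signal over the 5 arrays had a median of 0.437 over the members and of 0.391 over all genes, and it was over 1 for 6 members (14.6%, against 9.25% of all genes). ABCCinc-02 had 10.73, 9.78, 11.08, 9.05 and 11.01 in LS-VL, on SR-TK replicates 1 and 2 and then SR-VP replicates 1 to 3. Its signal in the resistant strain on the same arrays was 10.74 and 10.31 in SR-TK and 11.10, 9.30 and 10.35 in SR-VP. Both channels were lowest on the SR-VP replicate 2 array, so that its ratio there, 0.25, stayed small. Of its 2 probes, 1 had 6.40 in LS-VL there and 7.27 to 9.79 on the other arrays. The other probe had 11.69 there and 12.09 to 13.82 on the other arrays. The other members with a range over 1 were TuABCC-21, TuABCC-25, TuABCC-29, TuABCC-31 and TuABCC-33. In LS-VL on SR-VP replicate 2, 1 probe of TuABCC-21 had 6.97, against 10.44 to 11.10 on the other arrays. There 1 probe of TuABCC-29 had 6.59, against 8.28 to 9.90. On SR-VP replicate 1, 1 probe of TuABCC-31 had 7.60, against 9.06 to 11.41. In TuABCC-33, 1 probe had 7.07 and 7.23 on SR-VP replicates 1 and 3, against 8.54 to 10.10. In TuABCC-25 all 3 probes were lowest on SR-VP replicate 1, at 7.66, 8.26 and 9.54.

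Many ABCC members are neighbours by name. A name gives a scaffold and a running number on it. The 43 members lie on 13 scaffolds, with 8 on scaffold 3. Where members within 50 numbers of the next count as neighbours, 18 members form 7 runs. TuABCC-28 (Tetur11g7593) has a number of 4 digits, so its place relative to others is uncertain.

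Pairs within 1 run had more similar ratios than other pairs in the median, but not in each case. As a measure of likeness, the absolute difference of 2 members' ratios was averaged over the 5 arrays. Its median was 0.133 over 16 pairs within runs, 0.46 over 57 pairs on 1 scaffold outside runs and 0.379 over 747 pairs on different scaffolds. The pairs within runs lay between 0.033 and 0.295. Of the 20 closest pairs, 2 lay within runs, 4 on 1 scaffold outside runs and 14 on different scaffolds. The pairs share their arrays and members recur across pairs, so these medians are a description. Of the 41 members, 15 had their most similar member on the same scaffold, while 8.9% of all 820 pairs share a scaffold. Whether probes of neighbouring members also bind each other's transcripts was not tested, since no probe sequences were used here.

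The most similar pair of all was ABCCinc-06 (Tetur06g00510) and TuABCC-18 (Tetur06g00620), which differed by 0.026 on average although they lie 110 numbers apart. Next came TuABCC-30 and TuABCC-32, within 1 run, with 0.033. TuABCC-09 and TuABCC-30, on different scaffolds, followed with 0.051. TuABCC-07 and TuABCC-08 differed by 0.067, and TuABCC-13 and ABCCinc-04 by 0.072.

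The run on scaffold 1 holds TuABCC-03, ABCCinc-01, TuABCC-04 and TuABCC-05, numbered 17810 to 17840. All of its members had a ratio below 0 on each of the 3 SR-VP arrays, with means of −0.19, −0.38, −0.32 and −0.21 in that order, and ABCCinc-01 passed the test. In SR-TK their means were 0.02, −0.27, −0.19 and −0.07, and none passed. TuABCC-04 came next in SR-VP, at an adjusted p of 0.075 in limma's fit.

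The run on scaffold 14, TuABCC-30 to TuABCC-33 (numbered 2840 to 2880), stayed close to LS-VL with loess. Its ratios lay between −0.19 and 0.15 on all 5 arrays, and the means were −0.07, −0.10, −0.08 and 0.08 in SR-TK and −0.10, 0.08, −0.14 and 0.0014 in SR-VP, in numerical order. TuABCC-19 and TuABCC-20 (scaffold 6) had 0.23 and 0.12 in SR-TK and 0.37 and 0.19 in SR-VP. None of these members passed with loess. With arrays centred on their median, all of them passed as higher in SR-TK, where 30.2% of all genes were higher. TuABCC-19 then also passed in SR-VP.

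On scaffold 9, TuABCC-23 and TuABCC-24 had 0.16 and 0.23 in SR-TK and 0.05 and 0.20 in SR-VP. TuABCC-25 and TuABCC-26 on the same scaffold had −0.14 and 0.21 in SR-TK and 0.06 and 0.26 in SR-VP. ABCCinc-02 and ABCCinc-03 on scaffold 3 form the last run, of which ABCCinc-02 alone was measured, with 0.27 in SR-TK and −0.13 in SR-VP. None of these passed with loess either. With arrays centred on their median, ABCCinc-02 passed as higher in SR-TK.

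Agreement between probes was close to that of other genes. Of 38 members with 3 probes, 25 had all probes on 1 side of 0 in SR-TK (65.8%, against 65% of genes with 3 probes) and 24 in SR-VP (63.2%, against 61.1%). The range between the probes of a member had a median of 0.226 in SR-TK and 0.205 in SR-VP, and over genes with 3 probes of 0.183 and 0.174.

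**Figure D5:**
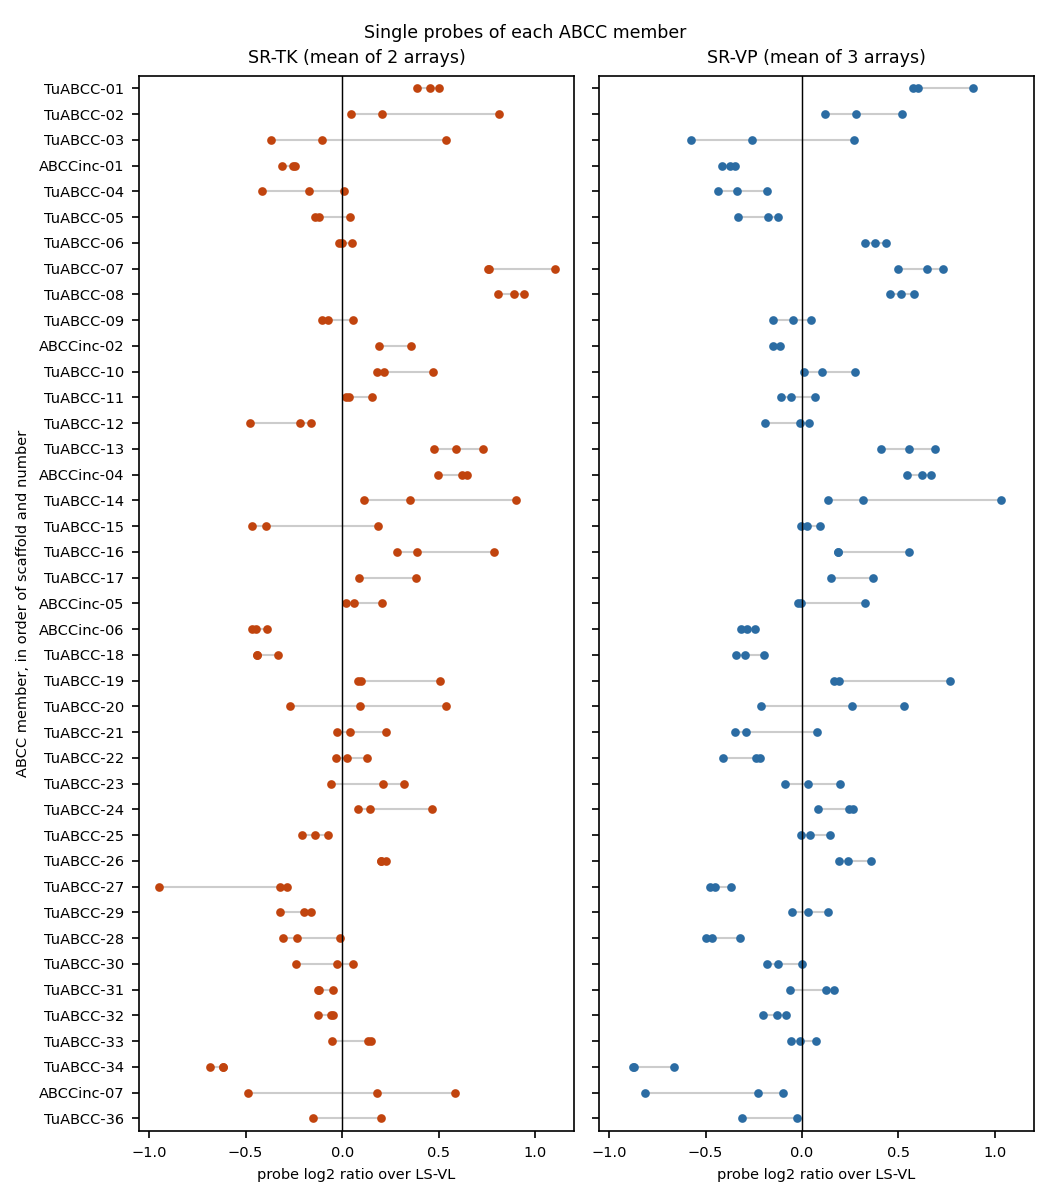
Mean log2 ratio over LS-VL (horizontal axis) of each probe kept for each ABCC member, in SR-TK (left, mean of 2 arrays) and in SR-VP (right, mean of 3 arrays), with a grey line joining the probes of a member. The probes of ABCCinc-01 nearly coincide in both panels, while those of ABCCinc-07 span 1.07 in SR-TK.

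The probes of TuABCC-07 gave 0.76, 1.10 and 0.76 in SR-TK and 0.65, 0.73 and 0.50 in SR-VP. Those of TuABCC-08 gave 0.94, 0.81 and 0.89 in SR-TK and 0.52, 0.58 and 0.45 in SR-VP. All 6 probes of this pair thus lay above 0 in both strains. Taking the wider of its ranges in the 2 strains, ABCCinc-01 had the narrowest probe range, with −0.26, −0.31 and −0.24 in SR-TK and −0.35, −0.38 and −0.41 in SR-VP.

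The widest probe ranges were in ABCCinc-07, TuABCC-03, TuABCC-14, TuABCC-20 and TuABCC-02. ABCCinc-07 had −0.49, 0.59 and 0.18 in SR-TK and −0.82, −0.23 and −0.10 in SR-VP. TuABCC-03 had −0.10, 0.54 and −0.37 in SR-TK and −0.26, 0.27 and −0.57 in SR-VP. TuABCC-20 had 0.09, −0.27 and 0.54 in SR-TK and 0.26, −0.21 and 0.53 in SR-VP. In TuABCC-03 and TuABCC-20 the probes kept their order in both strains while pointing to opposite sides of 0, so the mean of these members stands for no single probe. TuABCC-02 had 0.82, 0.05 and 0.21 in SR-TK and 0.52, 0.12 and 0.28 in SR-VP.

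GSTs, whose products ABCC proteins can export, were tested in the same fit. Of 31 GSTs, 6 were higher and 4 lower past the adjusted p in SR-TK (19.4% and 12.9%, against 4.73% and 3.61% of all genes), with a median log2 ratio of 0.10. In SR-VP 10 were higher and 2 lower (32.3% and 6.45%, against 5.85% and 5.45% of all genes), with a median of 0.21. With arrays centred on their median the counts were 19 higher and 3 lower in SR-TK and 14 higher and 0 lower in SR-VP, while 30.2% and 8.34% of all genes were higher and lower in SR-TK and 15% and 7.23% in SR-VP. The counts in SR-VP were 3 and 1 without SR-VP replicate 2 (9.68% and 3.23%, against 1.91% and 1.61% of all genes). They were 4 and 1 without SR-VP replicate 3 (12.9% and 3.23%, against 4.12% and 3.44%). Without SR-VP replicate 1 they were 6 and 1 (19.4% and 3.23%, against 2.23% and 1.6%). The counts in SR-TK were 3 and 4 without SR-VP replicate 2 (9.68% and 12.9%, against 2.82% and 2.13% of all genes). With the SR-TK arrays fitted alone 0 passed, against 0.441% of all genes. TuGSTinc03 (Tetur03g09520), 40 numbers from TuABCC-09, was higher in both strains (1.22 ± 0.22 in SR-TK, 1.21 ± 0.18 in SR-VP, with adjusted p of 0.0253 and 0.0109 by limma), whereas TuABCC-09 had −0.04 in SR-TK and −0.05 in SR-VP. Of 37 other ABC transporters, 0 passed in either strain by limma, against 8.34% of all genes in SR-TK and 11.3% in SR-VP. An unadjusted p under 0.05 was found for 3 in SR-TK (8.11%, against 25.2% of all genes) and 2 in SR-VP (5.41%, against 26.9%). With arrays centred on their median, 12 of these were higher in SR-TK (32.4%, against 30.2% of all genes). In SR-VP 2 were then higher and 2 lower (5.41% each, against 15% and 7.23%).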

How the data were processed

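The scanner's intensity of each spot, foreground and local background, was deposited by the authors with its flags, per the file headers. The deposited log10 ratio of the scanner software served as a check, and correlated by 0.77 to 0.89 per array with the log2 ratios computed here. The submitters' processing notes name Agilent Feature Extraction 10.5. The 5 arrays shared a slide and a scan, so neither can be a term in the fit. The authors' lists of fold changes were not used.

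Median foreground and background intensities were corrected by normexp (offset 50) and normalized by loess within arrays (control spots at weight 0) and Aquantile between them (limma 3.58.1, R 4.3.3). Outlier spots were dropped. Probes were kept if 1 channel was well above background on at least 2 arrays of a strain, 44268 in all, and averaged per gene. The linear model had a coefficient for each strain and used the 5 arrays together (3 residual and 3.07 prior degrees of freedom), so SR-TK, with 2 arrays, takes much of its spread from SR-VP. Some genes may be spotted a second time under a number without a symbol. The number of arrays limits the precision.

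Named with values were members past the adjusted p, the 5 highest and 5 lowest ratios per strain, the 5 largest strain differences, probe ranges and spreads over arrays, the 5 with the most and with the fewest flags, members not measured, and members of runs. TuABCC-09, TuABCC-10, TuABCC-11, TuABCC-17, TuABCC-21, TuABCC-29 and TuGSTinc03 were named after their values were seen. Members, lists and tests were chosen with earlier results of these data known. Of 10 name stems of stage or tissue markers, 1 matched a symbol, and that was the sodium channel VGSC and no vitellogenin, so the labelled stage was not checked. Alternatives covered background, normalization, filter, probe summary, replicate block and arrays left out. Leaving out Aquantile gave the same ratios, so that alternative could not change a result based on them.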

Additional observations from a re-analysis of the deposited data

Results flagged for a closer look

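The log2 signal of LS-VL was compared over the 5 arrays for each of 41 measured members, and 2 had 1 array far from the other arrays by Dixon's test at the 95% level. TuABCC-06 had 7.32 in LS-VL on the SR-TK replicate 2 array, against 7.14 to 7.19 on the other arrays. TuABCC-10 had 8.44 in LS-VL on the SR-VP replicate 2 array, against 9.15 to 9.41 on the others. This came from 1 of its 3 probes, which had 6.20 in LS-VL there and 8.59 to 8.85 on the other arrays. The other probes had 8.88 and 10.24 there, and 8.60 to 8.88 and 10.25 to 10.49 on the other arrays. Chance alone sets apart about 1 in 20 such groups. On the same SR-VP array the Cy5 signal of TuABCC-10 was 8.70, against 9.22 and 9.33 on the other SR-VP arrays. The low probe had 6.33 in Cy5 there. The log2 ratio of TuABCC-10 was 0.26 on this array, against 0.07 and 0.06 on the other SR-VP arrays. Its probes gave 0.24, 0.42 and, for the low probe, 0.13.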

How the results depend on the processing

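The count of members called stayed at 0 in SR-VP and in SR-TK minus SR-VP under each alternative that kept the 2-fold rule. In SR-TK it was 2 with median centring and 0 to 2 with 1 array left out. Dropping the 2-fold rule gave 2 in SR-TK and 6 in SR-VP. Past the adjusted p alone, SR-TK had 18 members with median centring (43.9%, against 38.6% of all genes) and 0 with its own arrays alone (against 0.441%). It had 2 with any 1 SR-VP array left out (4.88%, against 4.63% to 9.32%). SR-VP had 2 with the scanner's processed signals (4.88%, against 7.78% of all genes) and 10 with median centring (24.4%, against 22.2%). With its own arrays alone it had 12 (29.3%, against 12.1%). It had 1 without SR-VP replicate 1 (2.44%, against 3.83%) and 0 without replicate 2 (against 3.52%). Without replicate 3 it had 3 (7.32%, against 7.56%). With 1 SR-TK array left, the spread comes from the SR-VP arrays alone, so the SR-VP result was that of its own arrays alone. The cause of the other changes was not tested. Fewer arrays enter where an array is left out. The median ratio was 0.42 in SR-TK and 0.23 in SR-VP with median centring (all genes 0.22 and 0.12), and −0.0020 in SR-VP with only bright probes. With 1 array left out it was −0.12 (below 0, without SR-TK replicate 1) to 0.18 in SR-TK and −0.0059 to 0.055 in SR-VP. Counts detected and probe agreement stayed within 1.5 times. With the replicate block, members called stayed at 0 in all 3 comparisons, and 2 members in SR-TK and 5 in SR-VP passed the adjusted p, 3 of them among the 6 without the block. With the block, TuABCC-01, TuABCC-14 and TuABCC-27 missed the threshold in SR-VP (limma, adjusted p = 0.0957, 0.0519 and 0.114). TuABCC-34 (limma, adjusted p = 0.0435) and TuABCC-06 passed there. The numbers are not taken to pair arrays: 2 numbers are shared, with deviations correlated by 0.37 and 0.16, and the labels name no shared batch. With 1 SR-TK array left, its spread is assumed to be that of SR-VP. Dim members are limited by signal over background, above all on SR-VP replicate 3.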
